A study of Rattus norvegicus with 10 samples.

Results

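The collagens described here are the 37 genes of a deposited comparison table of 16129 genes whose rat symbol is Col, a number, a lower-case a and a second number. Their levels were read in all 10 mRNA libraries of the series, 2 for each of 5 groups of primary Sprague-Dawley rat cells. Oligodendrocyte (OL) precursor cells (OPCs) had been shaken off mixed glial cultures of neonatal cortex and enriched by differential adhesion. By the sample labels all cells were transfected with small RNAs at 30 nM, whereas the methods of the study name a lentiviral vector for the sequenced cells, and the labels were followed here. OLs, kept in differentiation medium and collected 5 days after transfection, had received a miR-145-5p mimic (OL miR-145), that mimic together with a miR-219 mimic (OL miR-145+miR-219) or a scrambled mimic (OL miR-ctl). OPCs, kept in medium with FGF2 and PDGFAA and collected 24 h after transfection, had received a miR-145-5p inhibitor (OPC anti-miR-145) or a scrambled inhibitor (OPC anti-miR-ctl). A treatment tag of the OL miR-145 samples names miR-219 as well, whereas their titles and descriptions name miR-145 alone, and they were taken as miR-145. Mature miR-145-5p is not read by these mRNA libraries, so delivery of the small RNAs could not be checked here. The study defines a replicate of primary cells as cultures from an individual mouse. For the rat cells it does not say whether each library came from a separate animal. The p-values measure the spread between the 2 libraries of each group.

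Collagens are extracellular proteins built of alpha chains wound into a helix. Fibrillar collagens form the fibrils of connective tissue, type IV collagen forms the network of basement membranes, and the fibril-associated collagens (FACITs) sit on the surface of fibrils. In the brain, collagens are best known from the basement membranes of blood vessels and from the meninges, while the parenchyma holds little fibrillar collagen. The 37 genes comprised 9 fibrillar chains, 6 type IV chains, 4 type VI chains of beaded filaments, type VII collagen of anchoring fibrils, 2 type VIII chains of short-chain networks, 9 FACITs, 3 transmembrane collagens, 2 multiplexins, and Col28a1. Other collagen genes, such as Col1a2 and Col6a3, were not analysed here.

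Some of the collagens called between the OPC groups lie in head-to-head pairs. The upstream windows of 4 of them are printed because the results turn on these genes. Col4a1 and Col4a2 start on opposite strands 77 bases apart and share 176 bases of their windows, and Col4a3 and Col4a4 start 413 bases apart and share 88 bases. Each window runs from 250 bases before to 50 bases after the annotated start, 300 bases in all, from RefSeq on the GRCr8 assembly, which is not the build of the counts. Col4a1 is at chr16:84885347-84885646 on the plus strand, Col4a3 at chr9:91323740-91324039 on the plus strand, Col11a1 at chr2:204508886-204509185 on the plus strand and Col5a3 at chr8:27625899-27626198 on the minus strand. Capitals mark the CCAAT motif (CCAAT, or ATTGG on the other strand) and the GC box (GGGCGG, or CCGCCC on the other strand), which do not overlap each other in these windows.
Col4a1: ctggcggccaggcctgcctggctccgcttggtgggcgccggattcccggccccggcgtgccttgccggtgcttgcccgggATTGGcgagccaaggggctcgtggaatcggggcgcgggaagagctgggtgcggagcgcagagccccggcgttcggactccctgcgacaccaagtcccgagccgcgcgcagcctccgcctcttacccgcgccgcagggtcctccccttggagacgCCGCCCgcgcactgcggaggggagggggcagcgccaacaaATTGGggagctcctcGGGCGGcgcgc
Col4a3: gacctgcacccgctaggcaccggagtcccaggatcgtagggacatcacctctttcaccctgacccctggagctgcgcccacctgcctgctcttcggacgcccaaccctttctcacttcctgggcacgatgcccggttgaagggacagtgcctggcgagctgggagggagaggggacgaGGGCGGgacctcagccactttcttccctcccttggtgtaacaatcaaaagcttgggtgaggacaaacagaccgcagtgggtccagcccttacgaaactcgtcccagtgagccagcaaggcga
Col11a1: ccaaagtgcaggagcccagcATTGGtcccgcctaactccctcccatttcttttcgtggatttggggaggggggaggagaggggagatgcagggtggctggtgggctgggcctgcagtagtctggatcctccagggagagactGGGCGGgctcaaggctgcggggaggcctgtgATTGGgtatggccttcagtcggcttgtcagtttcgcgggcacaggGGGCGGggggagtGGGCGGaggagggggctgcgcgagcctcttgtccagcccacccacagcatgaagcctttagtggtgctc
Col5a3: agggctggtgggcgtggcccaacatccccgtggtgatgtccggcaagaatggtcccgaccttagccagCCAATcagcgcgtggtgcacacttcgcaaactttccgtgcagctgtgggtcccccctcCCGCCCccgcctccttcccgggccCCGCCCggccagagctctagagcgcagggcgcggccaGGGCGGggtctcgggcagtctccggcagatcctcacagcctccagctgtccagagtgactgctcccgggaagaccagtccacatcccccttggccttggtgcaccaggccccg

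The Col4a1 window held 2 CCAAT motifs and 2 GC boxes, and the Col4a3 window held 0 CCAAT motifs and 1 GC box. Col11a1 held 2 CCAAT motifs and 3 GC boxes, and Col5a3 held 1 and 3. A window was found for 28 of the 37 collagens, of which 8 held a CCAAT motif and 17 a GC box. Of all 33469 windows of the same length, 37.5% held a CCAAT motif and 33.1% a GC box. Letters matched in a window are a description and not a site.

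Library totals ran from 33505706 to 42684206 estimated counts, so depth limited only collagens of low counts, and the 2 libraries per group limited the precision of every comparison. Replicates differed beyond counting error in every group. Mbp, which encodes myelin basic protein, was at 6216 to 15531 CPM (counts scaled to a common library size) in the OL libraries and at 234 to 279 CPM in the OPC libraries, whereas Pdgfra, the PDGF receptor of OPCs, was at 148 to 265 CPM in OLs and at 903 to 1544 CPM in OPCs. The OL libraries also held the astrocyte marker Gfap at 4173 to 9676 CPM, against 7.80 to 51.8 CPM in OPCs. Replicate 2 of OL miR-145 stood apart for interstitial collagens, with Col1a1 at 16.4 CPM against 1.75 in replicate 1, and Col3a1 at 29.9 against 3.05. Replicate 1 of OL miR-ctl was more than 2-fold above replicate 2 for 7 of the 29 collagens with at least 10 counts in either library. Among the 7 were Col11a2 and Col4a1. Replicate 2 was more than 2-fold above replicate 1 for 4, Col3a1, Col7a1, Col8a2 and Col22a1. CPM were scaled by trimmed mean of M values (TMM) over all 10 libraries, and since lengths were not used, levels are compared within a gene and not between genes.

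Together the collagens took 0.0778% to 0.172% of a library's counts. Of the 37 genes, 13 reached a mean of 10 CPM in some group, 12 reached 1 CPM but not 10, and 12 stayed under 1 CPM in every group. The last set held Col13a1, Col14a1, Col15a1, Col17a1, Col19a1, Col25a1, Col28a1, Col2a1, Col4a6, Col6a1, Col6a5 and Col6a6. Col6a5 had 3 to 13 counts in the OL libraries and 0 in all 4 OPC libraries, and Col13a1 had at most 8 counts in any library. For 18 genes the highest library was more than 10-fold above the lowest. The heatmap of the genes in the 10 libraries shows the OPC and OL libraries apart in several fibrillar chains and FACITs, and the OPC groups apart in Col4a1 and Col4a2.

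**Figure D1:**
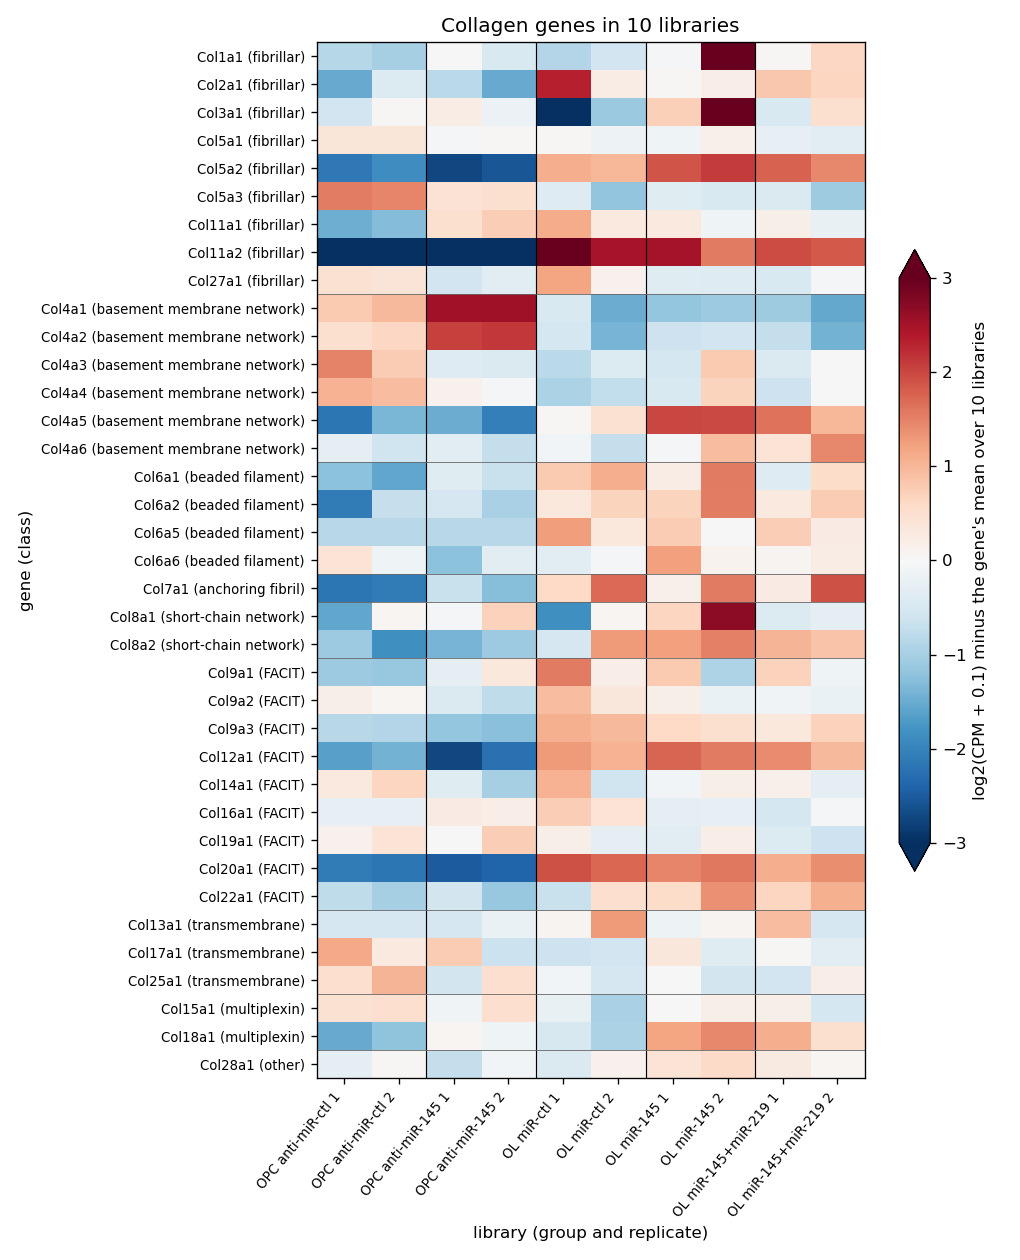
Heatmap of the 37 collagens (rows, by class) in 10 libraries (columns, by group and replicate). Colour is log2(CPM + 0.1) minus the gene's mean over the 10 libraries, from -3 (blue) to 3 (red), with values beyond drawn in the end colours. Col11a2, Col20a1, Col5a2 and Col12a1 are red in the OL libraries and blue in the OPC libraries, and, within their rows, Col1a1 and Col3a1 are reddest in replicate 2 of OL miR-145.

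In OPCs given the miR-145 inhibitor, collagens changed in both directions. Col4a1 and Col4a2, the chains of the common type IV network, rose 3.14-fold and 2.86-fold, and Col11a1, a fibrillar chain that helps to set fibril diameter, rose 3.97-fold. Col5a3, a chain of type V collagen, fell 2.07-fold, and Col4a3 and Col4a4, type IV chains known from the kidney filter, fell 3.14-fold and 1.96-fold. Of 33 collagens tested, 16 passed edgeR's quasi-likelihood test at an adjusted p under 0.05 (Benjamini-Hochberg, over every gene tested), 7 higher and 9 lower in OPC anti-miR-145. That was 48.5% of the collagens, where 28.1% of the 15496 genes tested passed, 12.1% higher and 16.0% lower. The groups did not overlap for 23 collagens, or 69.7%, against 68.6% of all genes. Collagens had a median log2 fold change of -0.20, and all genes 0.00451.

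Among the type IV chains, Col4a1 (ENSRNOG00000016281) was at 475 and 486 CPM in OPC anti-miR-145 and at 142 and 161 CPM in OPC anti-miR-ctl. Its log2 fold change was 1.65 (SE 0.0938, adjusted p = 7.94e-05). Col4a2 (ENSRNOG00000023972) was at 108 and 113 CPM against 36.4 and 40.4 CPM, a log2 fold change of 1.51 (SE 0.0901, adjusted p = 9.09e-05). Both genes of this head-to-head pair were higher in each treated library than in either control. The ratio of Col4a1 to Col4a2 counts was 4.38 and 4.30 in treated and 3.90 and 3.99 in control OPCs. The other pair ran the opposite way. Col4a3 was at 1.36 and 1.31 CPM against 5.19 and 3.09 CPM (log2 fold change -1.65, SE 0.286, adjusted p = 0.00604). Col4a4 was at 4.37 and 3.86 CPM against 8.33 and 7.63 CPM (log2 fold change -0.97, SE 0.147, adjusted p = 0.00336). Col4a5 and Col4a6 did not pass the test.

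Of the 8 fibrillar chains tested, Col11a1 rose and 4 fell, where 12.1% of all genes were called higher and 16.0% lower. Col11a1 was at 175 and 209 CPM in OPC anti-miR-145 and at 45.1 and 50.4 CPM in OPC anti-miR-ctl (log2 fold change 1.99, SE 0.111, adjusted p = 7.48e-05). Its type XI partner Col11a2 fell, from 7.94 and 7.61 CPM to 5.58 and 4.85 CPM (log2 fold change -0.59, SE 0.142, adjusted p = 0.022). The count ratio of Col11a1 to Col11a2 was therefore 31.3 and 43.1 in the treated libraries, against 5.69 and 6.62 in the controls. Col5a3 was at 139 and 142 CPM against 295 and 282 CPM (log2 fold change -1.05, SE 0.0787, adjusted p = 0.000168). Col5a1, the chain shared by most type V molecules, was at 13.9 and 14.7 CPM against 18.5 and 18.4 CPM (log2 fold change -0.38, adjusted p = 0.0268). Col5a3 lay further below its controls than Col5a1 did, with a count ratio of Col5a3 to Col5a1 of 10.0 and 9.65 against 16.0 and 15.3. The difference between these fold changes was not tested. Col27a1, a fibrillar chain known from cartilage, was at 28.3 and 33.9 CPM against 58.0 and 54.8 CPM (log2 fold change -0.87, SE 0.106, adjusted p = 0.00124).

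**Figure D2:**
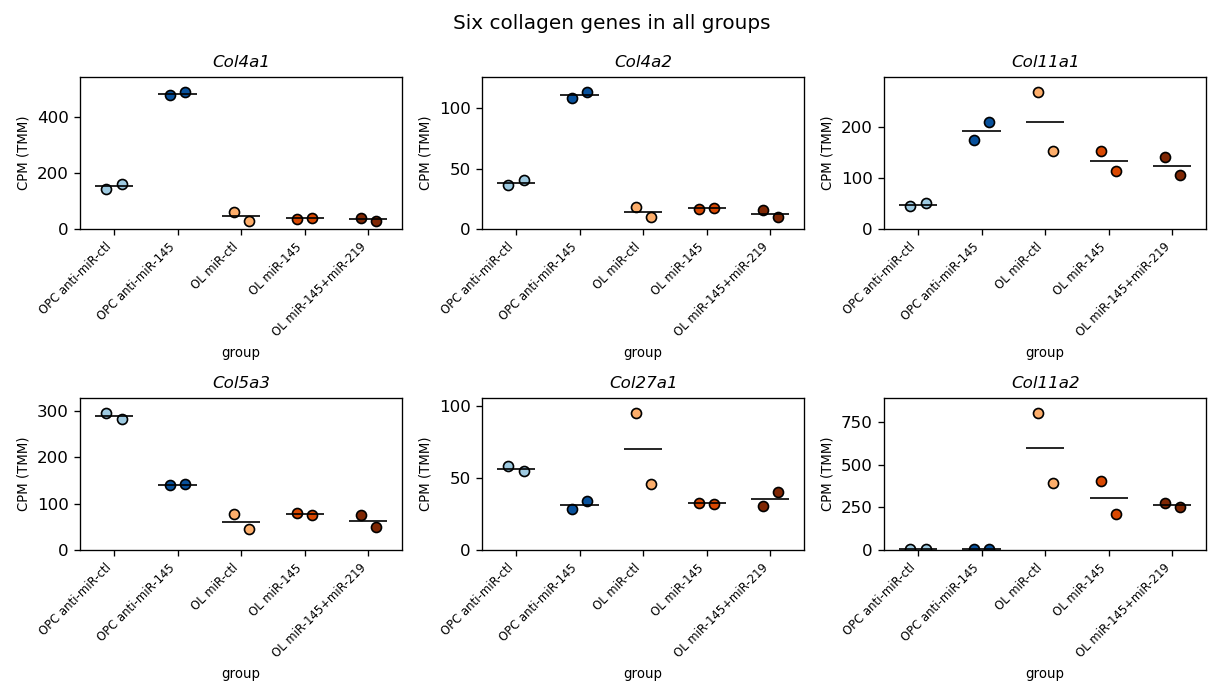
CPM (TMM, linear axes from 0) of 6 collagens in the 5 groups (horizontal axis). Each point is 1 library and each bar the mean of 2. Col4a1 and Col4a2 are highest in OPC anti-miR-145, Col5a3 is highest in OPC anti-miR-ctl, and Col11a2 is at 7.94 CPM or less in every OPC library.

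The FACITs were also split. Col16a1 was at 170 and 164 CPM in OPC anti-miR-145 and at 121 and 120 CPM in the controls (log2 fold change 0.45, SE 0.0792, adjusted p = 0.00616). Col12a1, which binds type I fibrils, fell from 6.92 and 8.10 CPM to 3.17 and 4.48 CPM (log2 fold change -0.98, SE 0.194, adjusted p = 0.0101). The type IX chains, which coat type II fibrils in cartilage, moved apart. Col9a1 was at 0.729 and 1.15 CPM against 0.369 and 0.356 CPM (log2 fold change 1.35, adjusted p = 0.0351). Col9a2 was at 2.64 and 2.09 CPM against 4.09 and 3.78 CPM (log2 fold change -0.75, adjusted p = 0.0316), and Col9a3 at 13.3 and 12.4 CPM against 16.5 and 16.1 CPM (log2 fold change -0.36, adjusted p = 0.0414). Col9a1 rose while Col9a2 and Col9a3 fell.

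Of the remaining classes, Col18a1, the multiplexin whose end fragment is endostatin, was at 2.92 and 2.53 CPM against 0.923 and 1.15 CPM (log2 fold change 1.38, SE 0.243, adjusted p = 0.00636). Col7a1, the anchoring fibril collagen, was at 1.36 and 0.851 CPM against 0.415 and 0.438 CPM (log2 fold change 1.35, adjusted p = 0.035). In both genes each treated library lay above each control. No transmembrane, type VI or type VIII chain passed the test, and 4 collagens had too few counts to be tested. Gfap was 41.2 and 51.8 CPM in OPC anti-miR-145 against 8.13 and 7.80 CPM in the controls, while the 9 fibroblast or mural cell markers found summed to 9.78 and 11.0 CPM against 15.8 and 15.1 CPM. Kcnj8, a pericyte marker, was at 0 in all 4 of these libraries, Pdgfrb was at 0.246 CPM or less, and the sum of 8 astrocyte markers was 408 and 453 CPM against 665 and 635 CPM. Within that sum Slc1a3 was at 169 and 205 CPM against 398 and 376 CPM. Of the 8 astrocyte markers, 1 was called higher and 4 lower. Their log2 fold change was positive for 4, with a median of -0.01. The 7 endothelial markers found summed to 3.997 and 5.13 CPM against 13.4 and 12.8 CPM, of which Flt1, a VEGF receptor, was at 1.01 and 0.759 CPM against 10.6 and 10.0 CPM. Flt1 was the 1 endothelial marker of the 7 that was called, and the median log2 fold change of the 7 was 0.12. Microglia markers summed to 1148 and 910 CPM against 1084 and 1020 CPM, and of the 10, 5 were called higher and 5 lower. The part of these cells in the collagen values was not tested. In bulk RNA, fewer cells of a type and less RNA per cell cannot be told apart.

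**Figure D3:**
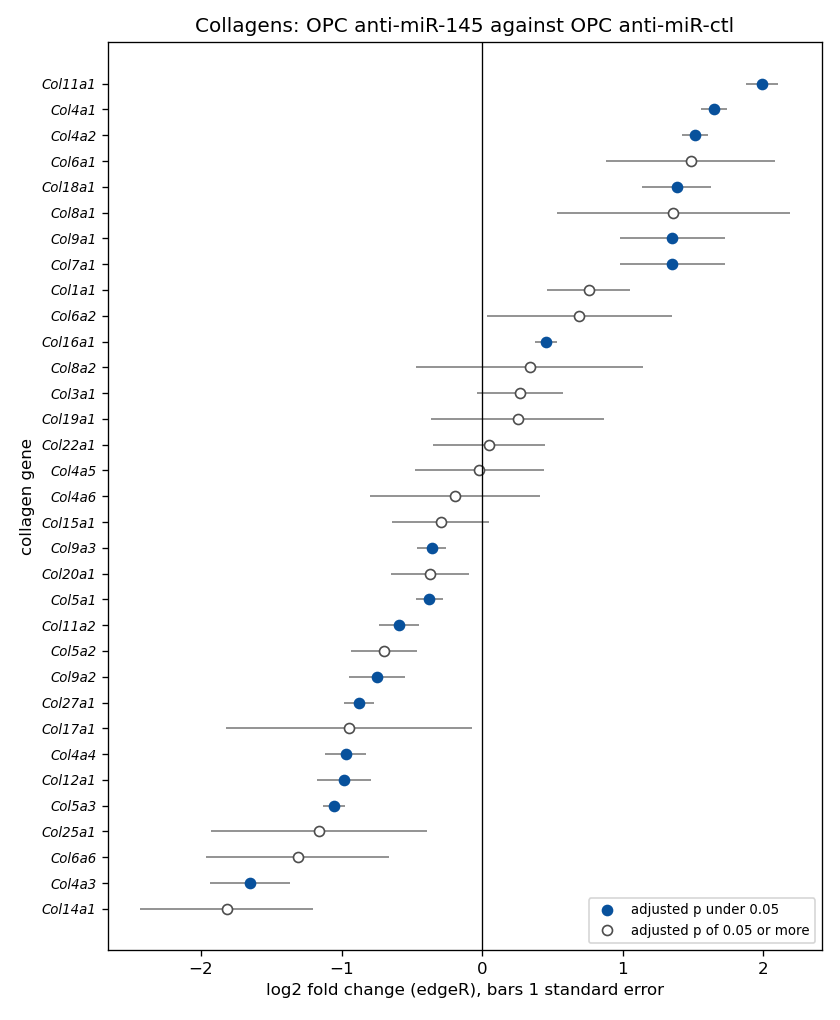
Log2 fold changes (edgeR) of the 33 tested collagens in OPC anti-miR-145 against OPC anti-miR-ctl (horizontal axis), ordered by size, with bars of 1 standard error. Filled points passed an adjusted p under 0.05, and they lie on both sides of 0, from -1.65 for Col4a3 to 1.99 for Col11a1.

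With 1 library left out at a time, each of the 16 called collagens kept its direction. A group of 1 library has no spread of its own, so only fold changes are given for these fits. The log2 fold change ran from 1.87 to 2.10 for Col11a1 and from 1.54 to 1.72 for Col4a1. For Col4a2 it ran from 1.42 to 1.57 and for Col5a3 from -1.11 to -1.03. The ranges were -2.00 to -1.24 for Col4a3, 0.96 to 1.66 for Col7a1 and 1.00 to 1.63 for Col9a1. DESeq2 called 13 of the 16, without Col7a1, Col9a1 and Col9a3. A single edgeR fit of all 5 groups kept 7, Col4a1, Col4a2, Col4a3, Col5a3, Col11a1, Col12a1 and Col18a1. Over all 15496 genes tested, DESeq2 called 4103 and the single fit 2657, where the main fit called 4348.

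Among 33 listed genes of collagen synthesis, which modify, fold, trim and cross-link the chains, 29 were tested, 8 rose and 1 fell in OPC anti-miR-145, beside 28.1% of all genes called in either direction. Lox, which cross-links collagens, was at 1.36 and 1.72 CPM against 0.277 and 0.246 CPM (log2 fold change 2.53, adjusted p = 0.00183). Plod3, a lysyl hydroxylase, was at 105 and 96.2 CPM against 72.6 and 68.1 CPM (log2 fold change 0.50, adjusted p = 0.00715). Adamts3, a procollagen protease, was at 1.01 and 1.79 CPM against 4.02 and 4.19 CPM (log2 fold change -1.56, adjusted p = 0.00644). The median log2 fold change over the list was 0.22. Of 12 tested receptors and matrix partners, Ddr1, a receptor kinase for collagens, rose (448 and 437 CPM against 286 and 281 CPM, log2 fold change 0.63, adjusted p = 0.00152), and its relative Ddr2 fell (10.1 and 12.6 CPM against 16.0 and 15.5 CPM, log2 fold change -0.49, adjusted p = 0.0296). These were the 2 of the 12 that were called.

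The control groups of both stages were then compared. OL miR-ctl and OPC anti-miR-ctl differ in stage, medium, day of collection and scrambled RNA, and these cannot be told apart. OLs had more Col11a2 (76.0-fold), Col20a1 (16.6-fold), Col5a2 (8.41-fold) and Col12a1 (6.45-fold) and less Col5a3 (4.76-fold), Col4a1 (3.41-fold) and Col4a2 (2.76-fold). The log2 fold change of Col11a2, 6.25, became 5.65 without replicate 1 of OL miR-ctl. Of 34 collagens tested with edgeR, 20 were called, 13 higher and 7 lower in OLs, or 58.8%. Of all 15721 genes tested 57.5% were called, 28.8% higher and 28.7% lower. The groups did not overlap for 27 collagens, or 79.4%, against 81.8% of all genes. Collagens had a median log2 fold change of 0.42, and all genes 0.00721.

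Among fibrillar chains, Col11a2 was at 800 and 394 CPM in OL miR-ctl and at 7.94 and 7.61 CPM in OPC anti-miR-ctl (log2 fold change 6.25, SE 0.412, adjusted p = 0.000236). Col11a1 was at 268 and 152 CPM against 45.1 and 50.4 CPM (log2 fold change 2.12, SE 0.277, adjusted p = 0.00223). The count ratio of Col11a1 to Col11a2 was 0.335 and 0.386 in these OLs, and 0.335 to 0.541 over all 6 OL libraries, so it lay below each OPC library. Col5a2, a type V chain, was at 19.7 and 18.6 CPM against 2.03 and 2.49 CPM (log2 fold change 3.07, SE 0.158, adjusted p = 0.000119). The other type V chains ran the other way. Col5a3 was at 77.7 and 44.7 CPM against 295 and 282 CPM (log2 fold change -2.25, SE 0.264, adjusted p = 0.00157), and Col5a1 was at 14.7 and 12.8 CPM against 18.5 and 18.4 CPM (log2 fold change -0.43, adjusted p = 0.0255). Col2a1, the fibril collagen of cartilage, was at 1.66 and 0.307 CPM against 0.0231 and 0.164 CPM (log2 fold change 3.42, SE 1.12, adjusted p = 0.0471). Col27a1 was at 94.7 and 45.5 CPM against 58.0 and 54.8 CPM, and the groups overlapped (log2 fold change 0.30, SE 0.332, adjusted p = 0.476).

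Of the 6 type IV chains, 4 were lower in OLs and Col4a5 was higher, where 28.7% of all genes were called lower and 28.8% higher. Col4a1 was at 60.1 and 29.4 CPM against 142 and 161 CPM (log2 fold change -1.77, SE 0.332, adjusted p = 0.00771), and Col4a2 at 18.2 and 9.81 CPM against 36.4 and 40.4 CPM (log2 fold change -1.46, SE 0.288, adjusted p = 0.00917). Col4a3 was at 0.979 and 1.32 CPM against 5.19 and 3.09 CPM (log2 fold change -1.87, adjusted p = 0.00746). Col4a4 was at 2.01 and 2.33 CPM against 8.33 and 7.63 CPM (log2 fold change -1.89, adjusted p = 0.000731). Both head-to-head pairs were thus lower in OLs, whereas in OPCs with the inhibitor they ran in opposite directions. These comparisons share the OPC anti-miR-ctl libraries. Col4a5, a chain that joins Col4a3 and Col4a4 or Col4a6, was at 2.06 and 2.79 CPM against 0.369 and 0.711 CPM (log2 fold change 2.16, adjusted p = 0.00764).

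Of 9 FACITs, 5 were higher in OLs and 0 lower at an adjusted p under 0.05 by edgeR, and 0 were lower by DESeq2. Of all genes, edgeR called 57.5%, 28.8% higher and 28.7% lower. Col20a1 was at 19.3 and 16.9 CPM in OLs and at 1.11 and 1.04 CPM in OPCs (log2 fold change 4.06, SE 0.161, adjusted p = 6.55e-05). Col9a3 was at 61.8 and 58.6 CPM against 16.5 and 16.1 CPM (log2 fold change 1.87, SE 0.0853, adjusted p = 8.99e-05), and Col9a1 at 2.86 and 1.04 CPM against 0.369 and 0.356 CPM (log2 fold change 2.41, adjusted p = 0.0171). The OL libraries lay above the OPC libraries for each of these. Col12a1 was at 52.9 and 44.8 CPM against 6.92 and 8.10 CPM (log2 fold change 2.69, SE 0.14, adjusted p = 0.000124). Col16a1 was at 237 and 191 CPM against 121 and 120 CPM (log2 fold change 0.81, SE 0.12, adjusted p = 0.00347).

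Col7a1 was at 3.41 and 7.45 CPM against 0.415 and 0.438 CPM (log2 fold change 3.64, adjusted p = 0.00229). The beaded filament chains Col6a1 (0.678 and 0.858 CPM against 0.0923 and 0.0547 CPM, adjusted p = 0.0034) and Col6a2 (0.929 and 1.20 CPM against 0.0923 and 0.410 CPM, adjusted p = 0.0407) were also higher. The transmembrane collagen Col17a1 of hemidesmosomes was lower, at 0.0251 and 0.0307 CPM against 0.323 and 0.137 CPM (log2 fold change -2.95, adjusted p = 0.0299). These 4 genes had few reads, and the levels of the last 3 stayed at 1.20 CPM or less in every library of the comparison. Astrocyte markers summed to 6417 and 5396 CPM against 665 and 635 CPM, and fibroblast or mural cell markers to 62.7 and 47.6 CPM against 15.8 and 15.1 CPM, while microglia markers summed to 408 and 605 CPM in OLs against 1084 and 1020 CPM. Pdgfrb was at 2.66 and 2.33 CPM in OLs. The part of these cells in the collagen values was not tested.

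**Figure D4:**
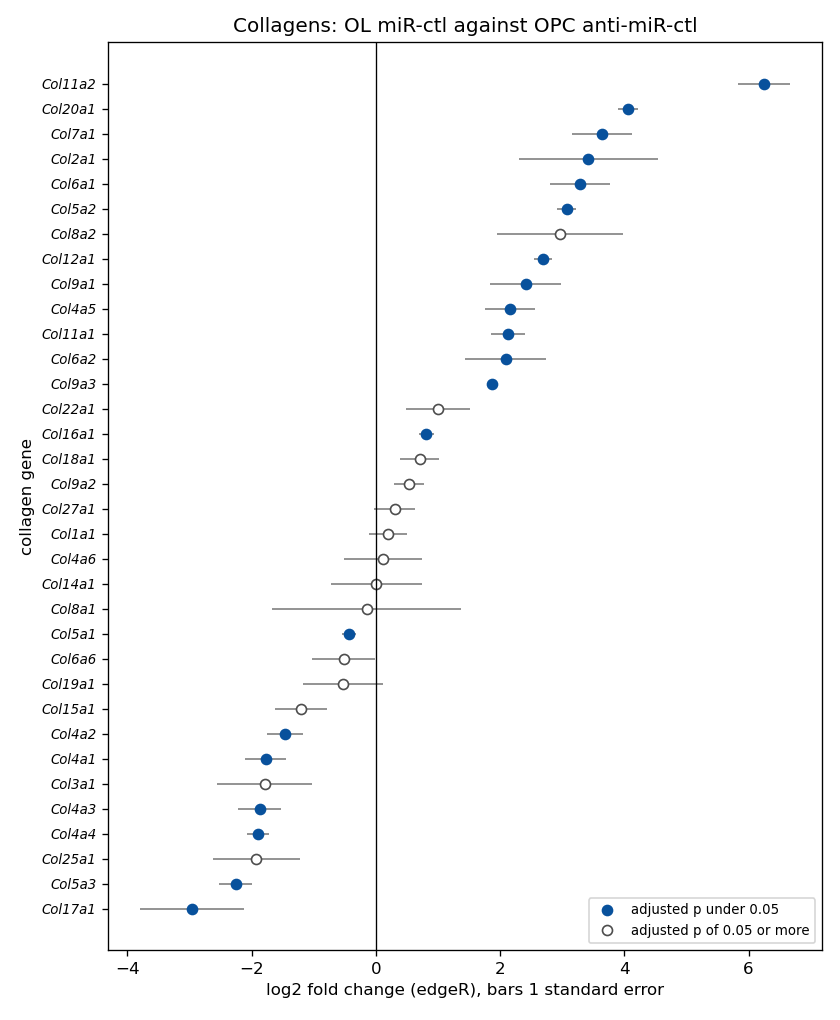
Log2 fold changes (edgeR) of the 34 tested collagens in OL miR-ctl against OPC anti-miR-ctl (horizontal axis), ordered by size, with bars of 1 standard error. Filled points passed an adjusted p under 0.05, from -2.95 for Col17a1 to 6.25 for Col11a2, and 13 of the 20 lie above 0.

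With 1 library left out at a time, each of the 20 called collagens kept its direction, and only fold changes are given for these fits. The log2 fold change ran from 1.74 to 5.23 for Col2a1 and from -3.42 to -2.19 for Col17a1, which DESeq2 did not call. It ran from 1.35 to 3.46 for Col6a2 and from 1.50 to 2.95 for Col9a1. For Col5a2 it ran from 2.93 to 3.22 and for Col20a1 from 3.96 to 4.14. Without replicate 1 of OL miR-ctl, Col27a1, which was not called, turned to a log2 fold change of -0.32, so its direction hung on replicate 1.

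Of the collagen synthesis list, 16 of 30 tested genes were higher and 3 lower in OLs, where 57.5% of all genes were called. The procollagen protease Bmp1 was at 205 and 233 CPM against 88.2 and 85.1 CPM (log2 fold change 1.32, adjusted p = 0.0003), and its relative Tll2 at 3.97 and 5.03 CPM against 0.231 and 0.164 CPM (log2 fold change 4.46, adjusted p = 0.000308). P3h2, a prolyl hydroxylase, was at 38.1 and 69.0 CPM against 4.89 and 4.95 CPM (log2 fold change 3.43, adjusted p = 0.000706). All 3 were higher in both OL libraries. Of 12 receptors and matrix partners 6 were higher and 1 lower. Sparc, a collagen-binding matrix protein, was at 288 and 213 CPM against 32.2 and 31.9 CPM (log2 fold change 2.95, adjusted p = 0.000147). The collagen-binding integrin Itga1 was at 4.09 and 2.45 CPM against 0.0923 and 0.164 CPM (log2 fold change 4.65, adjusted p = 0.000948), while Ddr2 was at 4.62 and 5.43 CPM against 16.0 and 15.5 CPM (log2 fold change -1.66, adjusted p = 0.000521).

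In OLs given the miR-145 mimic, Col5a2, Col18a1 and Col4a5 lay above OL miR-ctl in both libraries, by log2 fold changes of 0.97, 2.07 and 1.78, and Col16a1 and Col9a3 lay below, by -0.85 and -0.46, but no collagen passed edgeR's test. Of 34 collagens tested, edgeR called 0, where it called 0.0% of 15461 genes, and no adjusted p was under 0.158. An unadjusted p under 0.05 was seen for 11 collagens, 8 higher and 3 lower, or 32.4%, against 13.4% of all genes. The groups did not overlap for 20 collagens, 14 higher and 6 lower, or 58.8%, against 47.3% of all genes (22.9% higher and 24.4% lower). DESeq2 called 6 collagens, Col3a1, Col4a5, Col5a2 and Col18a1 higher and Col16a1 and Col27a1 lower. Over all genes DESeq2 called 649 of 15461, 535 higher and 114 lower. Collagens had a median log2 fold change of 0.32, and all genes -0.01. Without replicate 2 of OL miR-145 the median was 0.14, and without replicate 1 of OL miR-ctl the median was 0.58.

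With both mimics, edgeR called 0 of 33 collagens against OL miR-ctl, where it called 0.0% of 15436 genes, and 11 had an unadjusted p under 0.05, 5 higher and 6 lower, or 33.3% against 6.19% of all genes. The groups did not overlap for 18 collagens, 9 in each direction, or 54.5% against 36.8% of all genes (17.2% higher and 19.5% lower). DESeq2 called Col18a1 higher and Col16a1 lower, and over all genes it called 106 of 15436, 73 higher and 33 lower. The median log2 fold change was 0.02. The comparisons of either mimic group use the same OL miR-ctl libraries, so their values are set side by side for each gene.

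Col5a2 was at 34.8 and 40.0 CPM in OL miR-145, 31.8 and 25.5 CPM in OL miR-145+miR-219 and 19.7 and 18.6 CPM in OL miR-ctl. Its log2 fold change was 0.97 (SE 0.132, adjusted p = 0.158) with miR-145 and 0.59 (SE 0.151, adjusted p = 0.80) with both mimics. Col18a1 was at 6.44 and 7.81 CPM, 6.11 and 3.96 CPM, and 1.98 and 1.41 CPM in the same groups, with log2 fold changes of 2.07 (SE 0.284) and 1.57 (SE 0.336). Col4a5 was at 8.34 and 8.21 CPM, 6.48 and 4.13 CPM, and 2.06 and 2.79 CPM, with log2 fold changes of 1.78 (SE 0.248) and 1.14 (SE 0.322). For these 3 genes all 4 mimic libraries lay above both controls. Col12a1 was at 72.7 and 64.0 CPM with miR-145 and 57.8 and 42.6 CPM with both mimics, against 52.9 and 44.8 CPM (log2 fold change 0.49, SE 0.136, with miR-145), and only the first group stood clear of the controls.

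Col16a1 was at 115 and 121 CPM in OL miR-145, 99.4 and 137 CPM in OL miR-145+miR-219 and 237 and 191 CPM in OL miR-ctl, with log2 fold changes of -0.85 (SE 0.141) and -0.85 (SE 0.202). Col9a3 was at 45.3 and 41.6 CPM, 36.8 and 48.0 CPM, and 61.8 and 58.6 CPM, with log2 fold changes of -0.46 (SE 0.111) and -0.50 (SE 0.155). In both genes the controls lay above all 4 mimic libraries. Col27a1 was at 32.6 and 31.8 CPM, 30.4 and 40.3 CPM, and 94.7 and 45.5 CPM (log2 fold changes -1.12 and -0.98). Without replicate 1 of OL miR-ctl, the higher of its controls, the miR-145 value was -0.49 and that with both mimics -0.35. Col20a1 was at 14.1 and 15.2 CPM, 10.9 and 13.4 CPM, and 19.3 and 16.9 CPM, with log2 fold changes of -0.30 and -0.57. Col11a2 was at 401 and 209 CPM, 278 and 252 CPM, and 800 and 394 CPM, and the OL miR-145 libraries overlapped the controls. Col9a2 was at 4.08 and 3.11 CPM, 3.34 and 3.15 CPM, and 6.93 and 4.57 CPM. The low-count type IV chain Col4a6 was at 0.201 and 0.505 CPM, 0.319 and 0.758 CPM, and 0.201 and 0.0920 CPM, with a log2 fold change of 1.82 (SE 0.695) with both mimics.

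**Figure D5:**
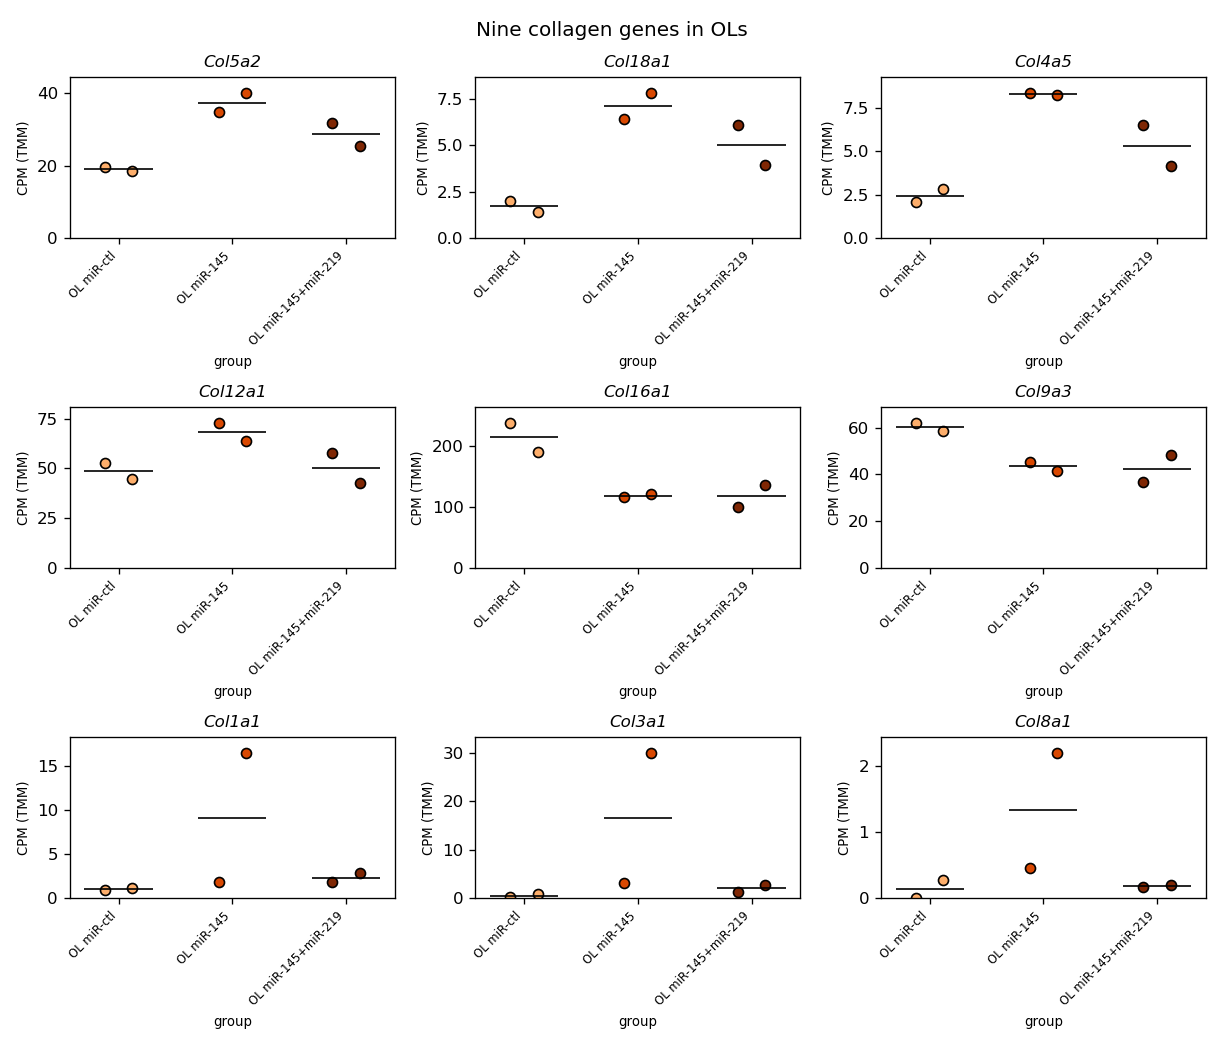
CPM (TMM, linear axes from 0) of 9 collagens in the 3 OL groups (horizontal axis). Each point is 1 library and each bar the mean of 2. Col5a2, Col18a1 and Col4a5 are above the controls in all 4 mimic libraries, Col16a1 and Col9a3 are below, and Col1a1, Col3a1 and Col8a1 are high in replicate 2 of OL miR-145.

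The size of the Col1a1 and Col3a1 differences depended on a single library. Col1a1 was at 1.75 and 16.4 CPM in OL miR-145, 1.82 and 2.78 CPM in OL miR-145+miR-219 and 0.929 and 1.17 CPM in OL miR-ctl. Its log2 fold change with miR-145 was 3.13 (SE 1.03), and 0.75 without replicate 2 of OL miR-145. Col3a1 was at 3.05 and 29.9 CPM, 1.30 and 2.61 CPM, and 0.126 and 0.797 CPM, and its value of 5.22 (SE 1.35) became 2.76 without that library. Col8a1, a chain of the network in vessel and corneal matrix, was at 0.460 and 2.20 CPM, 0.172 and 0.197 CPM, and 0 and 0.276 CPM, and went from 3.34 to 1.80. Col4a4 was at 2.88 and 6.37 CPM, 2.53 and 4.02 CPM, and 2.01 and 2.33 CPM, and went from 1.10 to 0.41. In each of the 4, replicate 2 was the higher OL miR-145 library. In that library the collagen chaperone Serpinh1 was at 6.49 CPM against 2.16 in replicate 1, and Dcn, a fibroblast proteoglycan, at 1.84 against 0.0575 CPM. Of 14 listed fibroblast or mural cell markers 9 were found, without Rgs5, Des, Twist1, Fap and Slc6a13. Those found summed to 95.0 CPM in replicate 2 and 112 CPM in replicate 1, with Tagln alone at 31.1 and 40.0 CPM. Microglia markers summed to 1029 and 413 CPM. The part of such cells in these collagen values was not tested.

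Sums of some cell type markers also differed between OL groups, although edgeR called 0 markers of any list in each OL comparison. The 9 fibroblast or mural cell markers found summed to 112 and 95.0 CPM in OL miR-145, 115 and 83.0 CPM in OL miR-145+miR-219 and 62.7 and 47.6 CPM in OL miR-ctl. Pdgfrb was at 5.15 and 5.89 CPM, 4.74 and 3.85 CPM, and 2.66 and 2.33 CPM. The 8 astrocyte markers summed to 13120 and 8929 CPM, 10827 and 6429 CPM, and 6417 and 5396 CPM. Both sums were higher in all 4 mimic libraries than in the controls, as were Col5a2, Col18a1 and Col4a5. For astrocyte markers the gap was small in OL miR-145+miR-219 replicate 2, at 6429 CPM against 6417 CPM in a control. The 7 endothelial markers found summed to 18.3 and 16.7 CPM, 16.6 and 19.0 CPM, and 29.6 and 23.2 CPM, lower in all 4 mimic libraries. With miR-145, 3 of the 6 endothelial markers tested had a positive log2 fold change. The microglia, OL and OPC marker sums of each mimic group overlapped those of the controls. Of the 10 microglia markers, though, 10 had a positive log2 fold change with miR-145 (median 0.67) and 7 with both mimics (median 0.40). Positive with miR-145 were also 2 of 8 OL markers and 2 of 6 OPC markers. The part of any of these cells in the collagen values was not tested. Of the synthesis list and of the receptors and matrix partners, edgeR called 0 in each OL comparison. With miR-145, 8 of 30 and 5 of 12 had an unadjusted p under 0.05, with both mimics 8 of 30 and 5 of 12, and between the mimic groups 1 of 30 and 0 of 13. Of all genes, 13.4%, 6.19% and 1.47% did so in these comparisons.

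Between OL miR-145+miR-219 and OL miR-145, edgeR called 0 of 33 collagens, where it called 0.0% of 15501 genes. DESeq2 also called 0 collagens, and 9 of all genes. Col8a1 and Col3a1 had an unadjusted p under 0.05, as 1.47% of all genes did, both lower with both mimics and both high in replicate 2 of OL miR-145. Without that library the log2 fold change of Col3a1 went from -3.10 to -0.64 and that of Col8a1 from -2.86 to -1.30. The groups did not overlap for 12 collagens, 1 higher and 11 lower, or 36.4%, against 24.8% of all genes (13.2% higher and 11.6% lower). Collagens had a median log2 fold change of -0.32, and all genes -0.00284. Col12a1 (-0.45, SE 0.179), Col5a2 (-0.40, SE 0.16) and Col4a5 (-0.65, SE 0.266) were among the 11, on the log2 scale.

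None of Col4a1, Col4a2, Col5a1, Col5a3 and Col11a1 was called between OL groups by edgeR or DESeq2. Col11a1 and Col5a1 lay lower in both OL miR-145+miR-219 libraries than in either control, and Col4a2 and Col5a1 lay lower in them than in either OL miR-145 library. Col4a1 was at 36.7 and 39.0 CPM in OL miR-145 and 39.6 and 28.4 CPM in OL miR-145+miR-219, within the 29.4 to 60.1 CPM of OL miR-ctl apart from 1 library at 28.4 CPM. Col4a2 was at 16.8 and 17.5 CPM, 15.8 and 9.69 CPM, and 18.2 and 9.81 CPM in the 3 groups. Col5a3 was at 80.1 and 74.7 CPM, 75.3 and 48.7 CPM, and 77.7 and 44.7 CPM. Col5a1 was at 13.1 and 15.9 CPM, 12.1 and 11.3 CPM, and 14.7 and 12.8 CPM. Col11a1 was at 153 and 113 CPM, 141 and 106 CPM, and 268 and 152 CPM. The higher control library was above the other by 2.04-fold for Col4a1, 1.86-fold for Col4a2, 1.74-fold for Col5a3 and 1.76-fold for Col11a1, and differences within that spread were not detectable here.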

How the data were processed

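Poly(A) RNA of 10 libraries, 2 in each of 5 groups, had been sequenced by the authors. They assigned reads to GENCODE Rnor6.0 transcripts with Salmon 0.12.0, used tximport, and deposited the estimated counts of 23487 genes without normalization, which were rounded here. Salmon can split reads between genes of similar sequence. The deposited DESeq2 table of OL miR-145 against OL miR-ctl holds a mean, fold changes and p-values, and only its gene IDs and symbols were used. Groups came from sample titles. For each of 5 comparisons the 4 libraries concerned were fitted alone by edgeR 4.0.16 in R 4.3.3 (estimateDisp, glmQLFit, glmQLFTest, TMM) keeping genes that reached 5 counts in 2 or more libraries. A gene was called if its p, adjusted over every gene tested (Benjamini-Hochberg), was under 0.05. The SE was the log2 fold change over the square root of F. Functions were tested on simulated data. Totals ran from 33505706 to 42684206 counts. Values were given for collagens called, at 10 CPM or more in a group, or, where none was called, under an unadjusted p of 0.05, and from the other lists for the 3 called with the smallest p. Members and lists were chosen with earlier results of these data known. Alternatives were DESeq2 1.42.0, its size factors within edgeR, no filter, a minimum of 10 counts, all 5 groups in 1 fit, a replicate block and leaving out each library. Promoter windows were searched in Python 3.11.15.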

Additional observations from a re-analysis of the deposited data

How the results depend on the processing

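No collagen named for a call reversed under another tool, scaling, filter or the fit of all groups. The count of collagens called for OL miR-145 against OL miR-ctl was 0 and became 6 with DESeq2 and 2 with all 5 groups in a single fit, and that for OL miR-145+miR-219 against OL miR-ctl was 0 and became 2 with DESeq2. In OPCs the 16 became 8 with all 5 groups in a single fit, and the median for OL miR-ctl against OPC anti-miR-ctl went from 0.42 to 0.81 with at least 10 counts in 2 libraries, which tests fewer genes. Across all genes DESeq2 called 649 for OL miR-145 against OL miR-ctl, 106 for both mimics against OL miR-ctl and 9 between the mimic groups, where edgeR called 0 in each. In OPCs all 5 groups in a single fit called 2657 genes, against 4348. The cause was not tested. Of the values of single genes under alternatives that keep every library, 471 kept their direction and side of the threshold, 28 newly passed it and 16 no longer passed.

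With a replicate block edgeR called 15 collagens for OL miR-145 against OL miR-ctl, 1 for both mimics against OL miR-ctl and 3 between the mimic groups, and 2272, 132 and 184 of all genes. The sources used here do not say that the same number marks the same animal in different groups. Deviations of same-numbered libraries correlated at 0.40, 0.47 and 0.63 in these comparisons, at -0.15 in OPCs and at 0.07 between the stages, over genes. In OPCs the block called 15 collagens, and the crossed pairing, added after the data were seen, called 17 collagens and 5536 genes.

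With 1 library left out at a time, medians ran from 0.14 to 0.58 for OL miR-145, -0.28 to 0.22 for both mimics, -0.34 to -0.055 in OPCs and 0.40 to 0.72 between the stages, and counts of 9 to 17 in OPCs and 13 to 24 between the stages. Log2 fold changes that changed sign ran, for OL miR-145 against OL miR-ctl, from -0.67 to 0.37 for Col4a1, -0.083 to 0.82 for Col4a2, -0.066 to 0.21 for Col5a1 and -0.00595 to 0.80 for Col5a3. For both mimics against OL miR-ctl they ran from -0.19 to 0.24 for Col12a1, -0.82 to 0.22 for Col4a1, -0.53 to 0.39 for Col4a2 and -0.32 to 0.48 for Col5a3. Between the mimic groups they ran from -0.34 to 0.11 for Col11a1, -0.60 to 0.33 for Col11a2, -0.26 to 0.20 for Col16a1, -0.089 to 0.31 for Col27a1, -0.43 to 0.057 for Col4a1 and -0.24 to 0.13 for Col9a3. Between the stages Col27a1 ran from -0.32 to 0.73. Depth limits the collagens under 1 CPM, and 2 libraries per group limit the rest.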
